A study of Mus musculus with 2 samples.

Results

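The Iroquois homeobox genes Irx1, Irx2, Irx3, Irx4, Irx5 and Irx6 were taken as the 6 mouse family members listed by symbol among the 19465 genes of the probe set, each listed once, whatever their level. Spatial gene expression was measured in the hearts of 2 mice, with 1 section each. The control was an α-MHC-MerCreMer+/− mouse, and the transgenic mouse was α-MHC-MerCreMer+/− hTOP2B LSL/−. Both carried the MerCreMer recombinase under the α-MHC promoter, which is active in cardiomyocytes, and both received tamoxifen once, at 80 mg/kg by intraperitoneal injection, at 6 weeks of age for the acute model. In the transgenic mouse, tamoxifen lets Cre remove a STOP cassette so that the CAG promoter drives human TOP2B in cardiomyocytes, whereas the control has the same Cre and the same tamoxifen without that transgene. The time from tamoxifen to collection is not given for these sections. Formalin-fixed sections of 5 μm were assayed with Visium CytAssist, in which pairs of probes for each gene are captured on barcoded spots in an area 6.5 mm wide and counted by unique molecular identifiers (UMIs). Each spot covers a patch of tissue in which several cells may lie.

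Iroquois proteins are transcription factors of the TALE homeodomain class. They sit in 2 chromosomal clusters of 3 genes, Irx1, Irx2 and Irx4 on mouse chromosome 13 and Irx3, Irx5 and Irx6 on chromosome 8. In the heart, Irx4 marks ventricular rather than atrial muscle, Irx5 is known for a gradient that is high at the endocardial side of the ventricular wall and keeps the potassium channel gene Kcnd2 low there, and Irx3 is known for its role in the fast conduction system. Irx1 and Irx2 are known from the trabecular and septal muscle of the developing ventricles.

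The control section held 1256 spots over tissue with 14376300 UMIs, and the transgenic section 924 spots with 12953389 UMIs. With 1 section per group there is no replicate check, so no p-value is given. All intervals are exact 95% intervals of counting error only, and levels are UMIs per 1000000 UMIs of the same area (CPM). Because each gene is read by its own probes, levels of different genes were not ranked against each other. Sums over genes and shares in them were read between the sections only. The tissue label was checked against markers: 9 ventricular cardiomyocyte marker genes made up 8.20% of control and 4.38% of transgenic UMIs, while 5 atrial marker genes summed to 97.8 and 110 CPM. Fibroblast markers (5 of 5 genes detected) were at 655 CPM in the control against 2075 CPM in the transgenic heart, and macrophage markers (4 of 4) at 154 against 311 CPM. Erythroid markers stood at 2146 CPM in the control against 20420 CPM in the transgenic heart. The part of these other cells in the differences below was not tested. Mouse Top2b was at 106 CPM in the control against 102 CPM in the transgenic heart, but mouse probes may not read the human transgene, so this does not check the label.

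The promoters of Irx2, Irx4 and Irx3 are shown first. The RefSeq promoter table (build GRCm38.p6) held only these 3 of the 6 genes, so they were not chosen by their difference between the sections. Each line gives the 250 bases before the transcription start, 5′ to 3′ on the gene's strand, with CG dinucleotides in capitals.
Irx2, chr13:72628570-72628819, plus strand: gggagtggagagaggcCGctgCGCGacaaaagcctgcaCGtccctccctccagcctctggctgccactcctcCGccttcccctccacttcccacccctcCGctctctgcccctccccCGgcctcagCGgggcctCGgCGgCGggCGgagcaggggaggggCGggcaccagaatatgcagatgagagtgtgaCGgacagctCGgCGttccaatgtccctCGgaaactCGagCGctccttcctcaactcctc
Irx4, chr13:73260247-73260496, plus strand: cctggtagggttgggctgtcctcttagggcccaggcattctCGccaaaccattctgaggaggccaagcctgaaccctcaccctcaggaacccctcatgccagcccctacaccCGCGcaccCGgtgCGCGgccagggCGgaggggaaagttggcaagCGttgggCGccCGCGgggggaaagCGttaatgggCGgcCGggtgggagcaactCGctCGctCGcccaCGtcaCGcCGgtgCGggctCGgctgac
Irx3, chr8:91801655-91801904, minus strand: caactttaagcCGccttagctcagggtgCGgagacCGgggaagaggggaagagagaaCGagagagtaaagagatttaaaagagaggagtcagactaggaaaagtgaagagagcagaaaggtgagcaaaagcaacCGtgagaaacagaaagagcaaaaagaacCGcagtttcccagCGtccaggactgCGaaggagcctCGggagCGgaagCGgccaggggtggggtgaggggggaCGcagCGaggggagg
The Irx2 window held 19 CG dinucleotides and the Irx4 window 22, against 13 for Irx3 and a median of 6 over the 32851 windows of this length. As many CG dinucleotides as in Irx4 were found in 14.8% of all windows, as many as in Irx2 in 19.7% and as many as in Irx3 in 31.5%. The letters GATA, searched on both strands, were in none of the 3 windows and in 53.6% of all windows. The letters ACANNTGT, the core bound by Iroquois proteins, were likewise in none of the 3, and in 6.31% of all windows. These matches describe letters in a short window and say nothing about binding.

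The first comparison was between the 2 sections. Irx4, the ventricular member, was lower in the transgenic heart, with 807 UMIs or 56.1 CPM (52.3 to 60.1) in the control heart and 174 UMIs or 13.4 CPM (11.5 to 15.6) in the transgenic heart. This was a 4.18-fold difference, a log2 ratio of transgenic over control of -2.06 (-2.31 to -1.83). Irx4 was the only one of the 5 members with at least 20 UMIs that was at least 2-fold lower, against 5.61% of all 15236 genes with that many UMIs, and 0 of the 5 were at least 2-fold higher, against 13.7%. Over those genes the median log2 ratio was 0.20. Among 9320 genes with at least 200 UMIs over both sections, 65 had a lower ratio than Irx4. UMIs of Irx4 were found in 45.6% of control spots (42.8 to 48.4) and 16.8% of transgenic spots (14.4 to 19.3). With all spots reduced at random to 8134 UMIs, and 140 control and 78 transgenic spots below that depth dropped, these shares were 34.4% and 9.57%.

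The difference in Irx4 was present all over the sections. Its control level ran from 51.9 to 61.6 CPM over the 4 quadrants of the section and its transgenic level from 10.9 to 15.7 CPM. Quadrants of a section are not replicates, and how many genes separate in this way was not counted. In the outer, middle and inner layer of the wall, as defined further on, its log2 ratio was -2.00, -2.05 and -2.09. Ventricular cardiomyocyte markers were themselves lower in the transgenic heart, and per UMI of those markers the log2 ratio of Irx4 was -1.16 (-1.40 to -0.92), an added calculation chosen after the data were seen. The study reports myosin and troponin genes among these markers as lower in transgenic cardiomyocytes, so this ratio is not a level per cardiomyocyte. Fewer cells of a type and less RNA per cell cannot be told apart in such sums.

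Irx2 was also lower in the transgenic heart, at 222 UMIs or 15.4 CPM (13.5 to 17.6) in the control against 107 UMIs or 8.26 CPM (6.77 to 9.98) in the transgenic heart, a log2 ratio of -0.90 (-1.25 to -0.56). Per UMI of the ventricular cardiomyocyte markers the log2 ratio was 0.00 (-0.35 to 0.34). It was smaller than over all spots in the 50% of spots richest in those markers, at -0.29 (-0.72 to 0.14). Irx3, the conduction system member, was higher, at 161 UMIs or 11.2 CPM (9.54 to 13.1) in the control against 211 UMIs or 16.3 CPM (14.2 to 18.6) in the transgenic heart, a log2 ratio of 0.54 (0.24 to 0.85). Its log2 ratio was 0.38 with edgeR TMM factors and 0.39 with DESeq2 size factors. Among 9320 genes with at least 200 UMIs over both sections, 6653 had a lower ratio than Irx3, so this rise is not unusual. The share of spots with Irx3 was 12.2% in the control and 18.9% in the transgenic heart, and 8.78% and 13.0% after thinning.

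For Irx1 and Irx5 the intervals of the log2 ratio over all spots included 0. Irx1 had 424 UMIs in each section, 29.5 CPM (26.8 to 32.4) in the control against 32.7 CPM (29.7 to 36.0) in the transgenic heart, a log2 ratio of 0.15 (-0.05 to 0.35). That value depended on which area of the heart was counted, since it was 0.52 without the top right quadrant of the transgenic section and -0.19 without the bottom right quadrant of the control. Irx5 had 211 UMIs or 14.7 CPM (12.8 to 16.8) in the control against 168 UMIs or 13.0 CPM (11.1 to 15.1) in the transgenic heart, a log2 ratio of -0.18 (-0.48 to 0.12). Its interval excluded 0 under other scalings and in fewer spots, at -0.34 (-0.64 to -0.036) with edgeR TMM factors, -0.33 (-0.63 to -0.030) with DESeq2 size factors and -0.37 (-0.72 to -0.018) in spots away from the tissue edge, where Irx1 was at 0.24 (0.016 to 0.46). Per UMI of the ventricular cardiomyocyte markers, which were themselves lower in the transgenic heart, both were higher there, by log2 ratios of 1.05 and 0.72. Irx6 was barely detected, with 11 UMIs in the control and 5 in the transgenic heart, never more than 1 in a spot, and no fold is given for it.

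**Figure D1:**
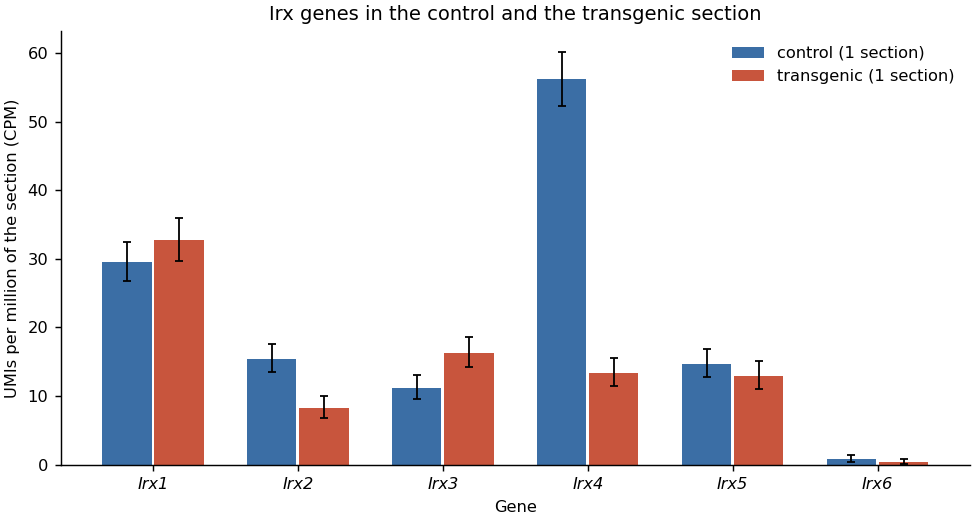
Levels of the 6 Irx genes in each section, in CPM of the section, with exact 95% Poisson intervals for counting error as error bars. Irx4 stood at 56.1 CPM in the control against 13.4 CPM in the transgenic heart, Irx2 was lower and Irx3 higher, and the intervals of Irx1 and Irx5 overlapped between sections.

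Within the family the balance of UMIs was thus different. All 6 genes together had 1836 UMIs or 128 CPM in the control heart and 1089 UMIs or 84.1 CPM in the transgenic heart. The chromosome 13 cluster went from 101 CPM in the control to 54.4 CPM in the transgenic heart, a log2 ratio of -0.89 (-1.02 to -0.76), whereas the chromosome 8 cluster was at 26.6 and 29.6 CPM, a log2 ratio of 0.15 (-0.05 to 0.36). The chromosome 13 cluster did not differ as a unit. Irx4 had 807 UMIs in the control and 174 in the transgenic heart, Irx2 had 222 and 107, and Irx1 had 424 in each. Irx4 gave 44.0% of the family's control UMIs (41.7 to 46.3) and 16.0% of its transgenic UMIs (13.9 to 18.3). Irx1 gave 23.1% in the control and 38.9% in the transgenic heart, and Irx3 gave 8.77% and 19.4%. These shares depend on each gene's probes, but the same genes were probed in both sections. A share also depends on the other members. That of Irx1 was higher with the same 424 UMIs in each section, because the family total was lower.

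**Figure D2:**
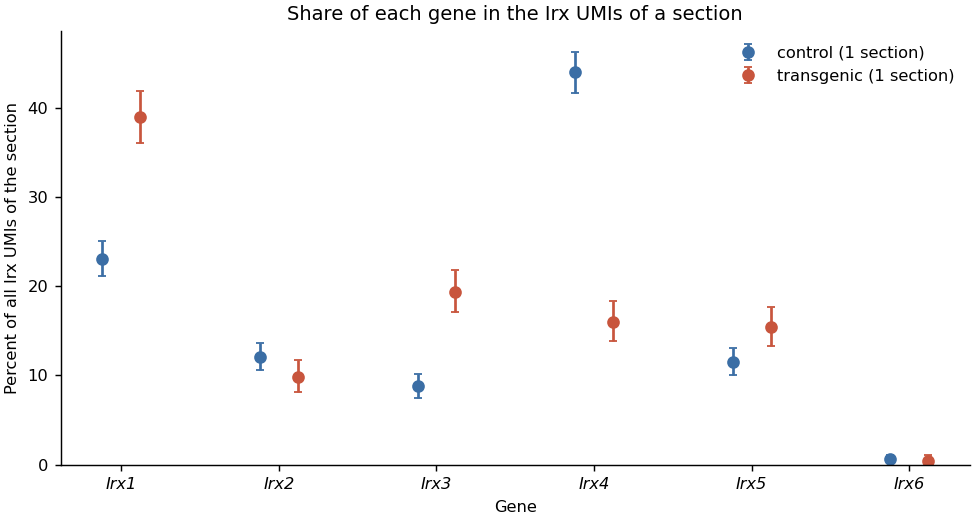
Share of each Irx gene in all Irx UMIs of a section, in percent, with exact 95% binomial intervals as error bars. The share of Irx4 was 44.0% in the control and 16.0% in the transgenic heart, while those of Irx1 and Irx3 were higher in the transgenic heart. Irx1 had 424 UMIs in each section, so its share was higher because the total was lower.

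The second question was where in the ventricular wall each gene was found. Areas without tissue that the section encloses were taken as cavities when they spanned at least 10 spots, which gave 1 cavity in the control heart and 2 in the transgenic heart. Each spot was placed by its grid steps to the outside as a share of its steps to the outside and to the nearest cavity, and the wall was cut by this share into 3 equal classes, called the outer, middle and inner layer, of 518, 474 and 264 control spots and 264, 373 and 287 transgenic spots. The mesothelial marker Upk3b, which belongs to the outer surface of the heart, was at 4.92, 0.51 and 0.71 CPM from outer to inner layer in the control and 4.88, 0.69 and 0.29 CPM in the transgenic heart. All 5 epicardial markers summed to 26.9, 3.92 and 6.04 CPM in the control and 59.4, 14.8 and 6.85 CPM in the transgenic heart. Endocardial markers, given further on, were higher in the outer than in the middle layer of both sections. The layers are thus geometric and not pure epicardial or endocardial sides. They were measured from 1 cavity in the control and from 2 in the transgenic heart, so they are not matched areas between the hearts. Wall ratios from the larger transgenic cavity alone were not computed. Ventricular cardiomyocyte markers were level across the wall, between 81123 and 82660 CPM in the control and between 42542 and 46301 CPM in the transgenic heart.

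Irx5 was higher toward the cavity in both hearts. Its control level was 7.02 CPM in the outer, 15.7 CPM in the middle and 28.1 CPM in the inner layer, and its transgenic level was 8.13, 12.2 and 19.4 CPM. The log2 ratio of inner over outer layer was 2.00 (1.43 to 2.59) in the control and 1.25 (0.62 to 1.93) in the transgenic heart. In the control, 1 of 9436 genes with at least 50 UMIs in these layers had a higher ratio. In the transgenic section, 24 of 9620 did. Genes with fewer UMIs were not counted, among them Cntn2 and Scn10a, with higher control ratios of 4.11 and 2.24. The intervals of Irx5 in the 2 sections overlapped, and the difference between them was not tested. Spots with a UMI of Irx5 made up 7.53% of the outer and 25.0% of the inner layer in the control, and 10.2% and 21.6% in the transgenic heart. These shares were taken without thinning. Outer layer spots had a median of 10803 UMIs in the control and 14410.5 in the transgenic heart.

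Irx2 had the same orientation. It was at 10.0, 13.8 and 29.9 CPM from outer to inner layer in the control, a log2 ratio of 1.58 (1.07 to 2.09), and at 2.17, 6.94 and 16.8 CPM in the transgenic heart, a log2 ratio of 2.96 (1.89 to 4.23). Its outer layer held 57 UMIs in the control and 8 in the transgenic heart, so that the log2 ratio of transgenic over control was -2.21 (-3.49 to -1.13) in the outer layer and -0.83 (-1.33 to -0.33) in the inner layer. Irx1 was at 24.2, 26.1 and 47.3 CPM in the control, a log2 ratio of 0.96 (0.61 to 1.32), and at 16.0, 32.8 and 50.2 CPM in the transgenic heart, a log2 ratio of 1.65 (1.22 to 2.10). Irx1 was lower in the transgenic heart in the outer layer, with a log2 ratio of transgenic over control of -0.60 (-1.06 to -0.15) there, 0.33 (0.02 to 0.65) in the middle and 0.09 (-0.25 to 0.42) in the inner layer. The Irx1-poor top right quadrant held 1366678 of 3689199 outer and 669569 of 3503785 inner UMIs of the transgenic section. Without it the transgenic inner over outer log2 ratio was 1.27 (0.83 to 1.74). Without the Irx1-poor bottom right quadrant the control ratio was 0.87 (0.51 to 1.23). The part of these quadrants in the layer differences was not tested.

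In all, 2 of 5 members with at least 20 UMIs in these layers, Irx2 and Irx5, were at least 2-fold higher in the inner layer of the control wall, against 0.885% of 11188 genes, and 3 of 5, Irx1, Irx2 and Irx5, in the transgenic wall, against 0.692% of 11415 genes. With the wall split at mid-depth into 2 layers the transgenic count was 1 of 5, against 0.447% of 12293 genes, with Irx2 at 1.84, Irx1 at 0.96 and Irx5 at 0.74. The transgenic value of Irx5 was also below 2-fold without the spots touching an edge, at 0.83 (0.0023 to 1.70), and without the bottom right quadrant, at 0.87 (0.14 to 1.63). The median log2 ratio of all those genes was 0.01 in the control and -0.16 in the transgenic heart. Irx3 was at 9.66, 10.2 and 16.4 CPM in the control, a log2 ratio of 0.76 (0.16 to 1.35) whose interval included 0 without the top left quadrant, at 0.52 (-0.17 to 1.20), and at 14.9, 17.7 and 15.4 CPM in the transgenic heart, a log2 ratio of 0.05 (-0.52 to 0.62). Its transgenic level was higher in the outer and middle layers, by log2 ratios of 0.63 (0.06 to 1.19) and 0.79 (0.32 to 1.28), and not in the inner layer, at -0.09 (-0.68 to 0.51). Irx4 was at 59.7, 54.5 and 52.3 CPM in the control, a log2 ratio of -0.19 (-0.48 to 0.09), and at 14.9, 13.2 and 12.3 CPM in the transgenic heart, a log2 ratio of -0.28 (-0.89 to 0.32). Its control interval excluded 0 between spots within 2 steps of a cavity and of the outside, at -0.51 (-0.96 to -0.077), and without the top left quadrant, at -0.32 (-0.64 to -0.0018). Irx6 had 2, 4 and 5 UMIs from outer to inner layer of the control, and all 5 of its transgenic UMIs were in the middle layer.

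Kcnd2, which encodes a subunit of the transient outward potassium channel, had the opposite slope to Irx5. It was at 23.0, 21.5 and 8.53 CPM from outer to inner layer in the control, a log2 ratio of -1.43 (-2.12 to -0.80). In the transgenic section it was at 4.61, 3.65 and 1.14 CPM, a log2 ratio of -2.01 (-4.04 to -0.40) that rested on 17 outer and 4 inner UMIs. Between the hearts Kcnd2 was lower in each layer, with log2 ratios of transgenic over control of -2.32, -2.56 and -2.90 from outer to inner. Those of Irx5 were 0.21 (-0.52 to 0.93), -0.37 (-0.84 to 0.10) and -0.53 (-1.02 to -0.05).

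**Figure D3:**
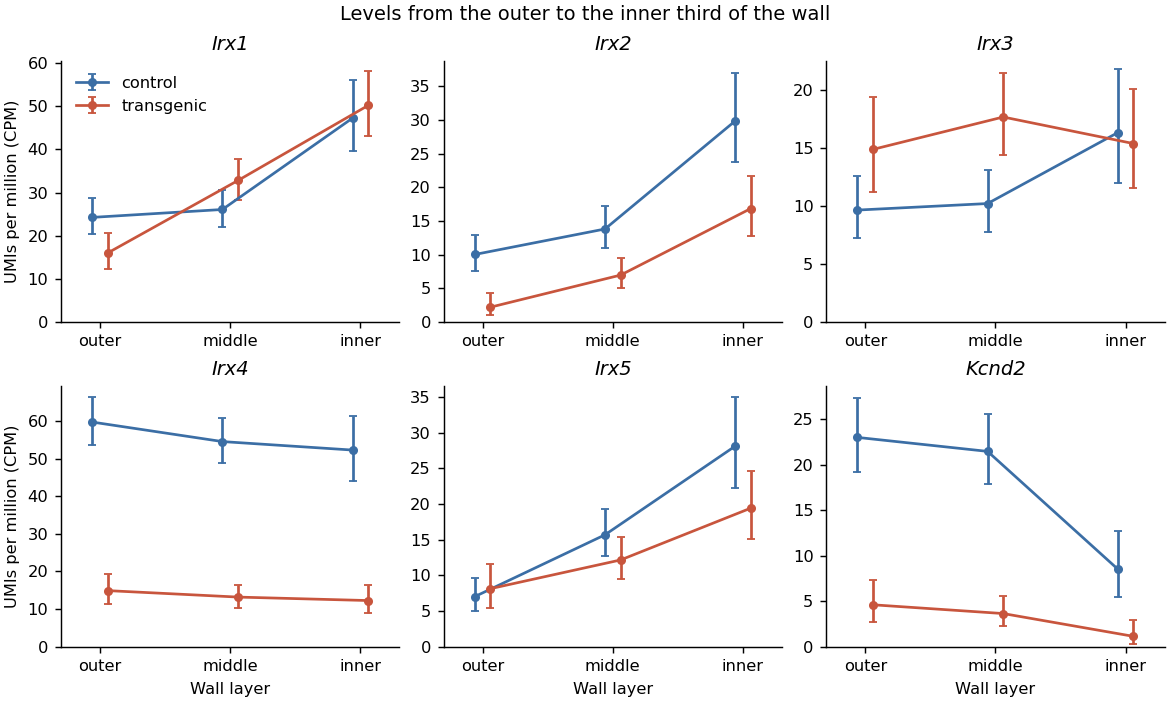
Levels of Irx1 to Irx5 and of Kcnd2 in the outer, middle and inner layer of the wall of each section, in CPM of that layer, with exact 95% Poisson intervals as error bars. Irx1, Irx2 and Irx5 were highest in the inner layer of both sections, Irx4 was lower in every layer of the transgenic heart, and Kcnd2 was lowest in the inner layer.

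Markers of other cells also differed over the wall. Endocardial markers (4 of 4 genes detected) were at 51.8, 22.7 and 92.1 CPM from outer to inner layer in the control and 160, 115 and 183 CPM in the transgenic heart. Purkinje markers (4 genes in the probe set, none of them at 0) were at 14.0, 10.6 and 27.7 CPM in the control against 21.7, 15.6 and 26.5 CPM in the transgenic heart. Gja5 alone gave 100 of the 220 control UMIs and 179 of the 263 transgenic UMIs of this sum. Between the sections the log2 ratio was 0.99 for Gja5 and -1.68 for Hcn4. It was 0.29 (-0.30 to 0.89) for Cntn2 and 0.85 (-0.53 to 2.33) for Cpne5. Inner and outer control UMIs were 25 and 39 for Gja5 and 34 and 4 for Cntn2. Those of Cpne5 were 4 and 3, and those of Hcn4 15 and 34. Erythroid markers were at 1803, 1542 and 4097 CPM in the control against 7103, 9564 and 52288 CPM in the transgenic heart. With the erythroid markers taken out of the totals, an added calculation, the inner over outer log2 ratios of Irx1, Irx2 and Irx5 were 0.97, 1.58 and 2.00 in the control and 1.72, 3.02 and 1.32 in the transgenic heart. In the 50% of spots richest in ventricular cardiomyocyte markers they were 0.93, 2.03 and 2.12 in the control and 1.63, 2.64 and 2.74 in the transgenic heart. The part of the endocardial and Purkinje markers in these slopes was not tested.

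The place relative to the tissue edge split by which edge it was. In spots touching a cavity, Irx1 was at 67.6 CPM in the control, against 29.0 CPM in the interior, a log2 ratio of 1.22 (0.69 to 1.71), and at 44.9 against 34.3 CPM in the transgenic heart, a log2 ratio of 0.39 (-0.02 to 0.78). Irx2 in such spots was at 45.7 against 14.2 CPM in the control, a log2 ratio of 1.68 (1.02 to 2.29), and at 19.3 against 7.52 CPM in the transgenic heart, a log2 ratio of 1.36 (0.68 to 2.01). Irx5 was at 20.1 against 15.0 CPM in the control, a log2 ratio of 0.43 (-0.60 to 1.30), and at 24.2 against 11.6 CPM in the transgenic heart, a log2 ratio of 1.06 (0.47 to 1.62). In spots touching the outside, all 3 genes were below the interior in both sections, with log2 ratios between -0.84 and -0.09 in the control and between -1.31 and -0.80 in the transgenic heart, although the control intervals and that of Irx5 in the transgenic heart included 0. Irx3 and Irx4 showed no edge difference beyond counting error, with log2 ratios between -0.48 and 0.24 for either edge in either section.

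By distance from the largest cavity, Irx1 went from 68.6 CPM at 1 to 2 grid steps to 33.5, 27.5 and 24.1 CPM at 3 to 4, 5 to 6 and 7 or more steps in the control. In the transgenic section it was at 46.1 and 47.5 CPM over the first 4 steps before 28.5 and 20.8 CPM farther out. Irx5 was at 24.2 and 26.5 CPM over the first 4 steps of the control and at 17.2 and 11.1 CPM beyond. Around the smaller cavity of the transgenic section, within 2 steps, Irx1 was at 25.1 CPM (15.7 to 38.0) and Irx5 at 9.14 CPM (3.94 to 18.0), against 46.1 CPM (37.8 to 55.7) and 22.0 CPM (16.4 to 28.9) within 2 steps of the larger cavity. Irx4 did not have this order, at 16.0 CPM by the smaller and 12.1 CPM by the larger cavity.

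The most uneven member around the heart was Irx1. In the control it was at 39.8 CPM in the top left quadrant, 23.7 in the top right, 49.2 in the bottom left and 6.11 in the bottom right, as the section lay on the slide. The highest quadrant was 8.05-fold above the lowest, and 0 of 7221 genes with at least 200 UMIs in that section had a higher ratio. In the transgenic section it was at 47.9, 6.33, 43.7 and 35.4 CPM in the same order, a 7.56-fold range that 1 of 7590 genes exceeded. The orientation of the sections is not given, so quadrants cannot be matched between hearts or named as septum or free wall. In both hearts, 1 quadrant was low in Irx1, with 1.98, 8.50 and 10.3 CPM from outer to inner layer in the bottom right of the control and 2.20, 5.55 and 16.4 CPM in the top right of the transgenic section. Ventricular cardiomyocyte markers in the Irx1-poor quadrant were at 82976 CPM in the control against 36170 CPM in the transgenic heart. The latter was the lowest quadrant of its section, with 41009 to 51431 CPM in the others. It was also the highest in erythroid markers, at 46017 CPM against 7183 to 14880 CPM, and in fibroblast markers, at 2558 CPM against 1614 to 2344 CPM. Their part in the low Irx1 level there was not tested.

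Irx2 shared this layout. It was at 19.6, 10.9, 25.5 and 6.11 CPM from top left to bottom right in the control and at 11.6, 3.16, 11.3 and 7.22 CPM in the transgenic heart, with its lowest level in the same quadrant as Irx1 each time. At least 2-fold ranges over quadrants were found for 2 of 4 members with at least 200 UMIs in the control, Irx1 and Irx2, against 0.346% of all such genes, and for 1 of 2 members in the transgenic heart, Irx1, against 2.49%. Irx3, Irx4 and Irx5 had ranges between 1.19-fold and 1.68-fold in either section. Over 12 wall regions, 3 layers by 4 quadrants, the levels of Irx1 and Irx2 had a Pearson r of 0.85 in the control and 0.76 in the transgenic heart, whereas Irx1 and Irx4 had 0.08 and -0.08. The regions share a library, so these are descriptions. Spots with a UMI of Irx1 held 25.9 CPM of Irx2 in the control, against 11.7 CPM in spots without, and 10.9 against 6.93 CPM in the transgenic heart, while Irx4 was at 56.6 CPM in Irx1 spots of the control and 56.0 CPM in its other spots, and at 12.3 and 14.0 CPM in those of the transgenic heart.

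**Figure D4:**
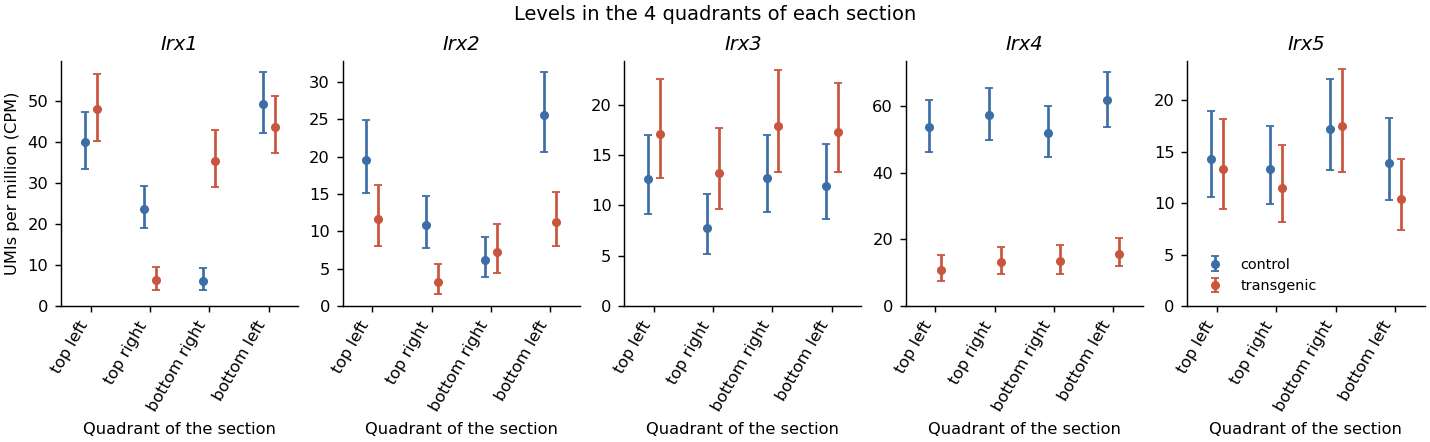
Levels of Irx1 to Irx5 in the 4 quadrants of each section as it lay on the slide, in CPM of the quadrant, with exact 95% Poisson intervals as error bars. Irx1 ranged from 6.11 to 49.2 CPM over the control quadrants and from 6.33 to 47.9 CPM over the transgenic ones, Irx2 followed it, and Irx4 ranged from 51.9 to 61.6 CPM in the control and from 10.9 to 15.7 CPM in the transgenic heart. The orientation of the hearts is not known, so a quadrant of one section does not correspond to that of the other.

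The deposited Moran's I, a score of how alike neighbouring spots are in a gene, was highest for Irx1 among the members in both sections. Irx1 had 0.173 in the control and 0.227 in the transgenic heart, and 34 and 614 genes had higher scores. Irx2 had 0.075 and 0.056, Irx5 had 0.043 and 0.030, Irx3 had 0.008 and 0.034, and Irx4 had 0.006 and 0.010. This score also depends on how many UMIs a gene has, and the value of Irx6 in the transgenic heart, 0.037, rested on 5 UMIs. Genes with at least 200 UMIs in both sections whose level over the 12 regions was most like that of Irx1 were Apobec2, a muscle member of a deaminase family, with r of 0.71 in the control and 0.70 in the transgenic heart, Plaat3, a phospholipase, with 0.70 and 0.67, and Casq2, the calcium-binding protein calsequestrin of the sarcoplasmic reticulum, with 0.66 and 0.77. Their own ranges were far narrower in the control, where Apobec2 went from 170 to 193 CPM over the quadrants. In the transgenic section Casq2 went from 284 to 585 CPM, and all 3 genes were lowest in the top right quadrant. These r are the top of a search over 12 regions, and how high they run without a link was not tested. Irx1 was the only member with enough UMIs in both sections for this search among 6789 genes.

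**Figure D5:**
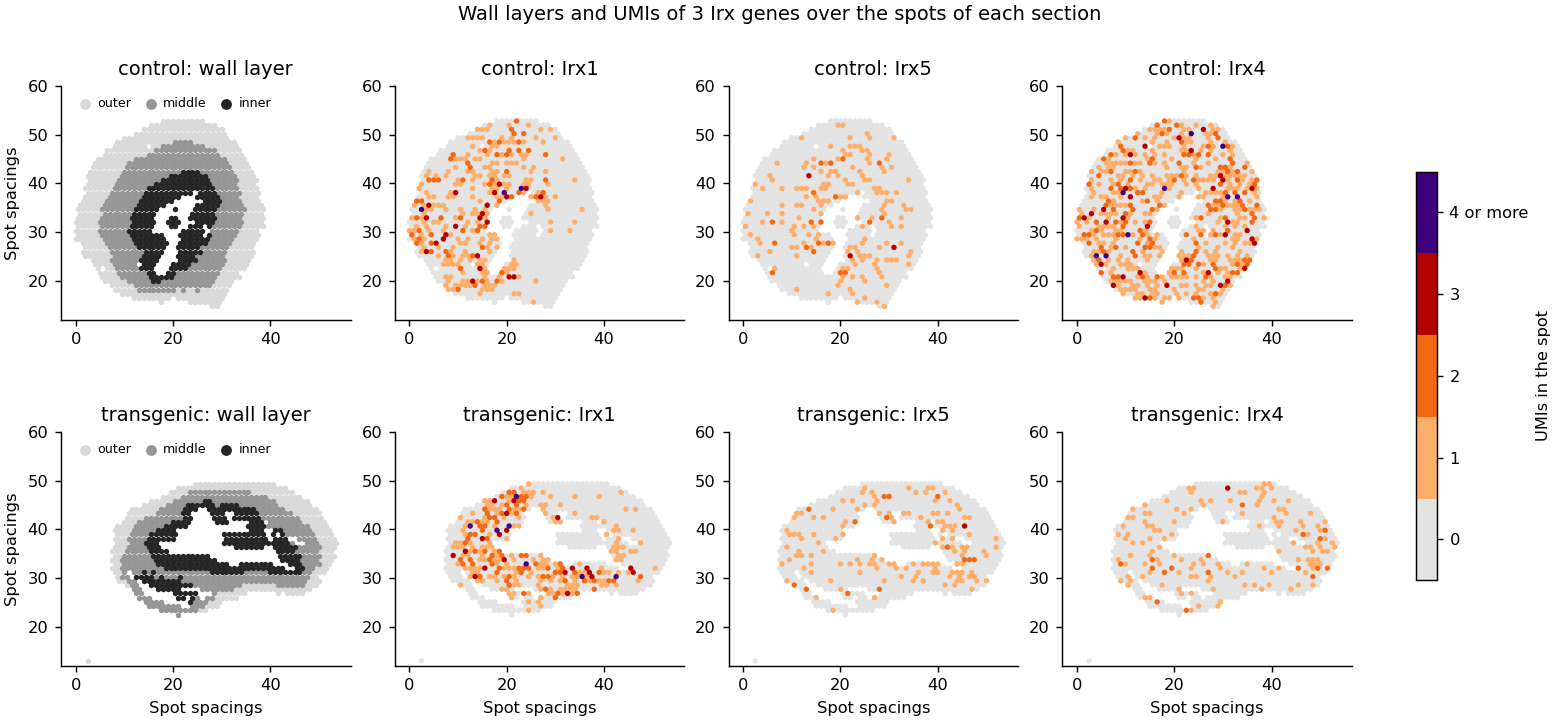
Maps of the spots of each section, with positions in spot spacings, coloured by wall layer in the left panels and by the number of UMIs of Irx1, Irx5 and Irx4 in the others. Spots with Irx1 were few on 1 side of each heart, spots with Irx5 lay more often near the cavity, and spots with Irx4 were spread over the control (45.6% of spots) and were fewer in the transgenic heart (16.8%). Isolated spots away from the tissue, 3 in the control and 1 in the transgenic heart, lie outside the frame.

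Of 16 genes listed as linked to Iroquois factors in heart, not all of them targets, 14 had at least 20 UMIs over both sections. At least 2-fold lower were 2 of them, against 5.61% of all genes, and at least 2-fold higher 1, against 13.7%, with a median log2 ratio of -0.20 against 0.20 over all genes. Smyd1, a muscle methyltransferase that acts with Hand2 in the developing ventricle, was at 868 CPM in the control against 326 CPM in the transgenic heart, a log2 ratio of -1.41 (-1.46 to -1.36). Across the wall its inner over outer log2 ratio was -0.06 (-0.13 to 0.01) in the control and 0.12 (0.0055 to 0.24) in the transgenic heart. Hand2, a ventricular transcription factor, had the highest ratio of the list, at 142 CPM in the control against 338 CPM in the transgenic heart. Kcnd2 had the lowest, at 19.5 and 3.24 CPM, a log2 ratio of -2.59 (-3.10 to -2.12). Gja5, a gap junction gene of atrium and fast conduction tissue, was at 6.96 and 13.8 CPM, a log2 ratio of 0.99 (0.63 to 1.36).

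Of 7 genes for subunits of the transient outward potassium current, 5 were measured, with 3 at least 2-fold lower (5.61% of all genes), 1 at least 2-fold higher (13.7% of all genes) and a median log2 ratio of -1.47. Kcnip2, the auxiliary subunit that raises this current, went from 209 CPM in the control to 15.8 CPM in the transgenic heart, a log2 ratio of -3.72 (-3.93 to -3.52). Its control level was 219, 213 and 180 CPM from outer to inner layer, a log2 ratio of -0.28 (-0.43 to -0.13) and a shallower slope than that of Kcnd2. In the transgenic section it was at 16.3, 14.8 and 17.1 CPM, with an inner over outer log2 ratio of 0.07 (-0.47 to 0.62). Kcna4, which encodes a slowly recovering channel of this current, was at 5.63 CPM in the control against 31.3 CPM in the transgenic heart, a log2 ratio of 2.48 (2.13 to 2.84). It had the highest control slope of these genes at 0.46 (-0.42 to 1.30), and its transgenic slope was 0.23 (-0.16 to 0.62). Both intervals included 0.

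Lists of outer and inner wall genes were set beside the members. The 5 outer wall genes had 2 at least 2-fold lower, against the same 5.61% of all genes, 0 at least 2-fold higher, against 13.7%, and a median log2 ratio of -0.56, with Kcnip2 lowest and Tbx20, a T-box factor, highest at 0.66 (0.58 to 0.74). The lower genes were Kcnd2 and Kcnip2, which were also counted among the transient outward current genes. Kcnd2 was counted among the genes linked to Iroquois factors as well, so these lists are not separate sets. Hey2, a factor of the compact wall, had 13 UMIs in the control and 16 in the transgenic heart, too few for a slope. Outer wall genes with at least 20 UMIs in these layers had a median inner over outer log2 ratio of -0.28 in the control and -0.41 in the transgenic heart. Inner wall genes had 0.52 and 0.73, and in the control wall 3 of 7, Cntn2, Scn10a and Kcne1, were at least 2-fold higher inside, against 0.885% of all genes. In the transgenic wall this held for 1 of 6, Scn10a, against 0.692%, and the medians are over different genes. Cntn2, a Purkinje fibre adhesion gene, had a log2 ratio of 4.11 (2.62 to 6.06) in the control on 34 inner and 4 outer UMIs and of 0.63 (-0.39 to 1.68) in the transgenic heart. Kcne1, a potassium channel subunit gene, had 1.69 (1.23 to 2.16) in the control and 0.15 (-0.10 to 0.41) in the transgenic heart. In the control the pacemaker channel gene Hcn4 had the lowest, at -0.16 (-1.15 to 0.75). Between the sections, 9 of 12 inner wall genes were measured, with 3 at least 2-fold higher, against 13.7% of all genes, 1 at least 2-fold lower, against 5.61%, and a median log2 ratio of 0.91. The highest was the natriuretic peptide gene Nppa at 6.21 and the lowest Hcn4 at -1.68 (-2.52 to -0.91).

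Other TALE homeobox genes encode proteins of the same class as the Iroquois factors. Of 12 genes, 11 were measured, with 0 at least 2-fold lower, against 5.61% of all genes, 2 at least 2-fold higher, a share near the 13.7% of all genes, and a median log2 ratio of 0.32. Tgif1, a corepressor, had the highest log2 ratio at 1.55 (1.17 to 1.94), and Pbx3, a partner of Hox proteins, the lowest at -0.46 (-0.77 to -0.15). None of the 10 with at least 20 UMIs in the outer and inner layers was at least 2-fold higher in the inner layer of either section, and their median inner over outer log2 ratio was 0.04 in the control and -0.24 in the transgenic heart. Tgif2 had the highest control slope at 0.73 (-0.72 to 2.14) and Meis2 the lowest at -0.17 (-0.79 to 0.42).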

How the data were processed

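Visium CytAssist spatial expression was measured in 1 FFPE heart section of 1 control and 1 transgenic mouse. Reads were processed by the authors in Space Ranger 2.0.0, per the file headers, and the submitters' notes name GRCm39 (mm39). The UMI counts deposited by the authors for each gene in each spot, without normalization, were analysed. Their deposited score of spatial autocorrelation, Moran's I, was taken as it stands, and spot positions came from the deposited tables. Deposited p-values beside that score and the image scale factors were not used here.

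UMIs were summed over the spots of a section, layer or quadrant and divided by the total of that area (CPM). Intervals were exact at 95% (Poisson for a level, conditional binomial for a ratio, Clopper-Pearson for a share) and cover counting error only, with medians of 11336 control and 14531 transgenic UMIs per spot. The Wilcoxon test over spots named in the methods was left out, since spots of 1 section are not replicates. A zero was to be set to a floor of 3 counts. Edge spots had at least 1 of 6 neighbours off tissue, and quadrants were split at the mean spot position. The 2 sections name 725 spot barcodes in common, which are array positions and not shared cells.

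The members, the 5 gene lists and the 12 marker lists were chosen with earlier results of these data known. The genes named are all Irx genes, the list members with at least 20 UMIs that had the highest and lowest log2 ratio between sections and the highest and lowest inner over outer ratio in the control, Smyd1, Kcnd2, Kcnip2, Gja5, Hey2, Top2b and the 3 genes most like Irx1. For a single gene among those this rule selects, no result is reported here. Upk3b, Tbx5, Cpne5, Scn10a and Kcne1 were named after their values were seen. Likeness was Pearson's r of log2(CPM + 1) over the 12 regions. Alternatives included edgeR 4.0.16 TMM factors and DESeq2 1.42.0 size factors (R 4.3.3), other spots and other wall layers. Scripts ran under Python 3.11.15 with scipy 1.17.1, numpy 2.4.6, pandas 2.3.3 and matplotlib 3.10.9, and the intervals were tested on simulated data. The planned comparison of the Irx proteins was not run, because no protein sequences were used here.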

Additional observations from a re-analysis of the deposited data

Results flagged for a closer look

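Irx1 and Irx5 had opposite signs in the 2 sections when all edge spots, outside and cavity edges together, were set against the interior. For Irx1 the log2 ratio was 0.15 (-0.25 to 0.54) in the control and -0.25 (-0.58 to 0.07) in the transgenic heart. For Irx5 it was -0.21 (-0.87 to 0.38) in the control and 0.51 (0.03 to 0.98) in the transgenic heart. With spots within 2 steps of an edge in place of edge spots, the transgenic value of Irx5 was 0.37 (-0.099 to 0.84), while those of Irx1 were 0.44 (0.15 to 0.72) in the control and -0.37 (-0.65 to -0.090) in the transgenic heart. Edge spots touching a cavity numbered 65 of 230 in the control and 131 of 311 in the transgenic heart. The differences between sections were not tested.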

How the results depend on the processing

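The ratios between the sections were recomputed under 19 alternatives for each of 5 genes, and those within a section under 12 for each wall ratio. Of 95 ratios between sections, 80 lay within the counting interval and 15 outside it. The sign was the other one in 6, of which 4 were for Irx1 (-0.0067 with TMM factors and 3 without a quadrant, given below), 1 for Irx2 and 1 for Irx5. The interval came to exclude 0 in 12, 6 for Irx1 and 6 for Irx5, and to include 0 in 2, both for Irx2. Counting per UMI of the ventricular cardiomyocyte markers, chosen after seeing the data, shifts every ratio up, because the marker sum itself had a log2 ratio of -0.90. The transgenic over control log2 ratios were then 1.05 for Irx1, 0.00074 for Irx2 (the other sign), 1.44 for Irx3, -1.16 for Irx4 and 0.72 for Irx5 (the other sign). In the spots richest in those markers they were 0.78 for Irx1, -0.29 for Irx2 and -0.49 for Irx5, and in the spots poorest in erythroid markers -1.29 for Irx2. Without a transgenic quadrant Irx1 was at -0.059 (top left), 0.52 (top right) and -0.052 (bottom left), without a control quadrant at 0.51 (bottom left) and -0.19 (bottom right), and Irx2 at -0.55 (bottom left). TMM and DESeq2 factors moved all log2 ratios by -0.16 and -0.15. Of 120 wall ratios, 111 lay within the interval and 9 outside. The other sign was seen in 8, 6 of them for Irx3 in the transgenic section (-0.21 to -0.074), 1 for Irx4 there (0.28 in the spots richest in cardiomyocyte markers) and 1 for Irx4 in the control (0.0086 without the bottom left quadrant). The interval came to include 0 in 2, both for Irx3 in the control, and to exclude 0 in 2, both for Irx4 in the control. The count of members at least 2-fold higher inside was 2 or 3 of 5 in the control and 1 to 3 of 5 in the transgenic section. Over all genes this share was 0.885% (control) and 0.692% (transgenic) with 3 layers. With 2 layers it was 0.625% and 0.447%, and it was not counted under the other settings. Cut into outer and inner layers of equal depth, inner over outer log2 ratios were 0.61 for Irx1, 1.06 for Irx2 and 1.39 for Irx5 in the control, and 0.96 for Irx1, 1.84 for Irx2 and 0.74 for Irx5 in the transgenic section. Within 2 steps of a cavity or the outside, control values were 1.69 for Irx1 and -0.51 for Irx4. The transgenic value of Irx1 was 2.12 without the top left quadrant, and that of Irx5 2.74 in the spots richest in cardiomyocyte markers. Among genes with at least 200 UMIs, 0 of 4 inner wall genes were at least 2-fold lower. Of 8 other TALE genes with that many UMIs, 1 was at least 2-fold higher. Shares over all genes were not counted at this minimum. All 20 edge ratios stayed within their intervals, but within 2 steps of an edge the sign turned for Irx3 in the transgenic section (-0.22), and 5 intervals changed in whether they included 0. The causes were not tested. Thinning removes UMIs, so lower shares of spots follow from the step itself. Of 12 shares, 10 fell out of their intervals. The share of spots with Irx5 was 14.8% in the control and 16.3% in the transgenic heart before thinning. After thinning the order was the other one, at 12.2% and 9.81%. No paired analysis was possible because each group has 1 section. With at most 807 UMIs for a gene, differences inside the printed intervals were not detectable at this depth. The floor of 3 counts for a gene at 0 stood at 0.209 CPM (control) or 0.232 CPM (transgenic), which is a setting and not an exact upper limit.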
